A study of Mus musculus with 25 samples.

Results

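Melanin is made from tyrosine inside melanosomes, the pigment organelles of melanocytes. Tyrosinase (Tyr) catalyses the first and rate-limiting steps, Tyrp1 and Dct (dopachrome tautomerase) act further down the eumelanin branch, Pmel forms the fibrils on which pigment is laid down, and membrane transporters set the pH and ion content of the organelle. The transcription factor Mitf is known to drive most of these genes in the melanocyte lineage, with Sox10 and Pax3 acting upstream of it, and Mc1r is the receptor through which melanocortins raise cAMP and favour eumelanin.

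The values of 10 pigment synthesis genes were taken from RNA-seq of cultured murine melanoma lines: the enzymes Tyr, Tyrp1 and Dct, the melanosomal proteins Pmel and Mlana, the transporters Slc45a2, Slc24a5 and Oca2, and the receptors Gpr143 and Mc1r. These genes were chosen by symbol, matched to the versioned Ensembl identifiers, and are 10 of 55385 genes in the count data. All 10 passed the filter on low counts, as did 15247 genes in total. Each of 5 lines had 5 libraries, with RNA taken from untreated cells at 50% confluency. The study set WT31, B16F10 luc2 and RET (HIM-melanoma, with high or intermediate metastatic efficiency in the liver) against D4M and HCmel12 (LM-melanoma, with low efficiency).

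WT31 came from Tyr::NrasQ61K; INK4a-/- mice, in which the Tyr promoter drives mutant Nras. B16F10 luc2 is a commercial line that carries luciferase. RET (RET1) came from mice carrying a RET transgene under the metallothionein-I promoter. The source of HCmel12 was HGF-CDK4(R24C) mice, where it arose as a primary melanoma. D4M came from mice with Tyr::CreER and BrafCA, in which the Tyr promoter drives the recombinase. WT31 and D4M therefore carry transgenes under the promoter of one of the genes described here, and each genotype is represented by a single line. WT31, RET and B16F10 luc2 were kept in RPMI, HCmel12 in a supplemented RPMI and D4M in Advanced DMEM/F-12, so that line and medium cannot be told apart for HCmel12 and D4M. The labels call the replicates biological but do not say that they came from separate cultures, and p-values then measure only the spread between these samples.

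Library totals lay between 24199083 and 25843286 estimated counts, so that depth was similar in all 25 libraries. Levels are given as counts scaled by TMM factors to a total of 1000000 (CPM), and 3 counts, at most 0.138 CPM, were taken as the smallest detectable amount. Levels of different genes were compared as TPM, which are also scaled by transcript length, with the enzymes on counts beside them. Unless another test is named, adjusted p-values are from voom and limma over all tested genes, with the Benjamini-Hochberg method and a threshold of 0.05.

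The promoters of 6 of the 10 genes (Tyr, Tyrp1, Dct, Slc24a5, Oca2, Mc1r) were present in the RefSeq table used (GRCm38.p6). All 10 genes were higher in each of the other lines than in D4M. These 6 are shown because their promoters were available, and they were not chosen by expression. The 250 bases before the start of each gene were searched on both strands for CATGTG, a core that Mitf is known to bind, and for CACGTG, the other common E-box of this factor family. Each of the 6 windows held CATGTG, compared with 12.3% of 32851 windows of the same length in the table and 7.7% of 14034 windows of tested genes. CACGTG was found in 6.02% of all windows, in 8.07% of those of tested genes and in no window of the 6 genes. Among the other lists, CATGTG was present in 5 of 28 genes of melanosome biogenesis and transport and in 0 of 9 melanocyte regulators, and CACGTG in 9 of 28 and 1 of 9. Matches of this kind are a description of letters, not of binding.

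The sequence around each match is written below on the strand of the gene, with the searched letters in capitals; CACATG is the same motif read on the other strand. The windows lay at chr7:87493516-87493545 (minus strand) for Tyr, chr4:80834155-80834184 (plus) for Tyrp1, chr14:118052379-118052408 and chr14:118052461-118052490 (both minus) for Dct, chr2:125068102-125068126 (plus) for Slc24a5, chr7:56239561-56239590 (plus) for Oca2 and chr8:123407019-123407048 (plus) for Mc1r. In Mc1r a further match, CACATG, began 62 bases before the start and stands in lower case in the stretch printed. The Tyrp1 match lies inside the gene as annotated in GENCODE M21, where it begins 90 bases before the RefSeq start.
Tyr, 21 bases before the start: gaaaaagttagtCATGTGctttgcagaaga
Tyrp1, 46 bases before the start: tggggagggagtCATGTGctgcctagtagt
Dct, 150 bases before the start: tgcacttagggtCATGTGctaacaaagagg
Dct, 232 bases before the start: gcttggctgggaCACATGagcccaataaag
Slc24a5, 13 bases before the start: aaggagactgctCACATGattcagc
Oca2, 186 bases before the start: ttgagcttgctaCACATGgctggaattttc
Mc1r, 51 bases before the start: gcacatgcccatCATGTGgccaccctcagg

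For Tyr, whose levels differed most among the 4 lines other than D4M, the whole window is given (chr7:87493513-87493762, minus strand). It directly adjoins the gene, which lies at chr7:87424771-87493512 in GENCODE M21.
Tyr: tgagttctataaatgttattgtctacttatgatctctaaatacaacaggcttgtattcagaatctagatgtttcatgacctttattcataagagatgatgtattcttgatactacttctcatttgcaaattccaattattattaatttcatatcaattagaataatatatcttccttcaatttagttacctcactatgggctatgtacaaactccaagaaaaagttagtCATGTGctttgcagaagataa

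As a group, the pigment synthesis genes were abundant in 4 lines and close to 0 in D4M. Together the 10 genes took 2.98% ± 0.112 of all counts in B16F10 luc2, 2.24% ± 0.382 in WT31, 1.78% ± 0.127 in RET and 1.31% ± 0.242 in HCmel12, but 0.00125% ± 0.00216 in D4M (mean ± SD, n = 5). The D4M value rested on replicate 1, at 0.00509%, and was 0.000288% ± 0.00026 in the other 4 libraries. By TPM, Tyrp1 ranked between 4 and 6 among all genes in the B16F10 luc2 libraries, and Dct ranked between 9 and 16 in WT31. In bulk RNA, fewer cells of a kind and less RNA per cell cannot be told apart.

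In WT31 compared with D4M, 10 of 10 genes were higher (37.5% of all tested genes were higher and 38.6% lower). The same count was found in B16F10 luc2 compared with D4M (38.8% higher, 38.9% lower), in RET compared with D4M (38.8% higher, 38.3% lower) and in HCmel12 compared with D4M (35.7% higher, 36.8% lower). Without the filter on low counts, Tyrp1 missed the threshold in WT31 (log2 fold change 13.57, adjusted p = 0.07) and HCmel12 (14.76, 0.053) compared with D4M. The median log2 fold change of the 10 genes was 12.62, 13.19, 11.62 and 9.81 in these 4 comparisons, beside -0.009, -0.002, 0.005 and -0.004 over all tested genes. With scaling by library size alone the median of all genes moved to 0.22, 0.15, 0.21 and 0.17, and the share of calls that were higher went from 49.3% to 62.4% in WT31 and from 49.2% to 60.4% in HCmel12, with the 10 genes still higher. The 4 comparisons share the D4M libraries.

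In comparison with HCmel12, 9 genes were higher in WT31 and 1 was lower (36.1% and 34.3% of all tested genes), 9 were higher in B16F10 luc2 (35.3% higher, 33.8% lower), and 7 were higher and 1 lower in RET (34% and 33.3%). The median log2 fold change of the 10 genes was 2.67, 1.89 and 1.41, with 0.005, 0.003 and -0.003 over all tested genes. These 3 comparisons share the HCmel12 libraries. Among HIM-melanoma, 5 genes were higher and 3 lower in WT31 than in B16F10 luc2 (36.4% and 36.4%), 8 were higher and 2 lower in WT31 than in RET (36.8% and 36.4%), and 8 were higher in B16F10 luc2 than in RET (25.2% higher, 26.2% lower). Their medians were 0.61, 0.99 and 0.90, with -0.001, -0.002 and 0.001 over all tested genes.

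Tyr, Pmel, Mlana, Slc45a2, Slc24a5, Gpr143 and Mc1r were significantly higher in each line of HIM-melanoma than in both D4M and HCmel12. These are 7 of 10 genes, whereas 6.53% of all tested genes were higher and 6.4% were lower in all 6 comparisons. Tyrp1, Dct and Oca2 did not meet this criterion, and in each case the comparison that failed involved HCmel12. Dct met it without HCmel12 replicate 4 (8 of 10 genes), and Slc45a2 did not with edgeR's quasi-likelihood test (6 of 10). The paper looked at a set of melanocyte differentiation genes whose decrease in HCmel12 is associated with local growth and lung metastasis. It stated that no like relation to liver colonization was found among these lines. The genes of that set are not listed in the text of the paper.

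**Figure D1:**
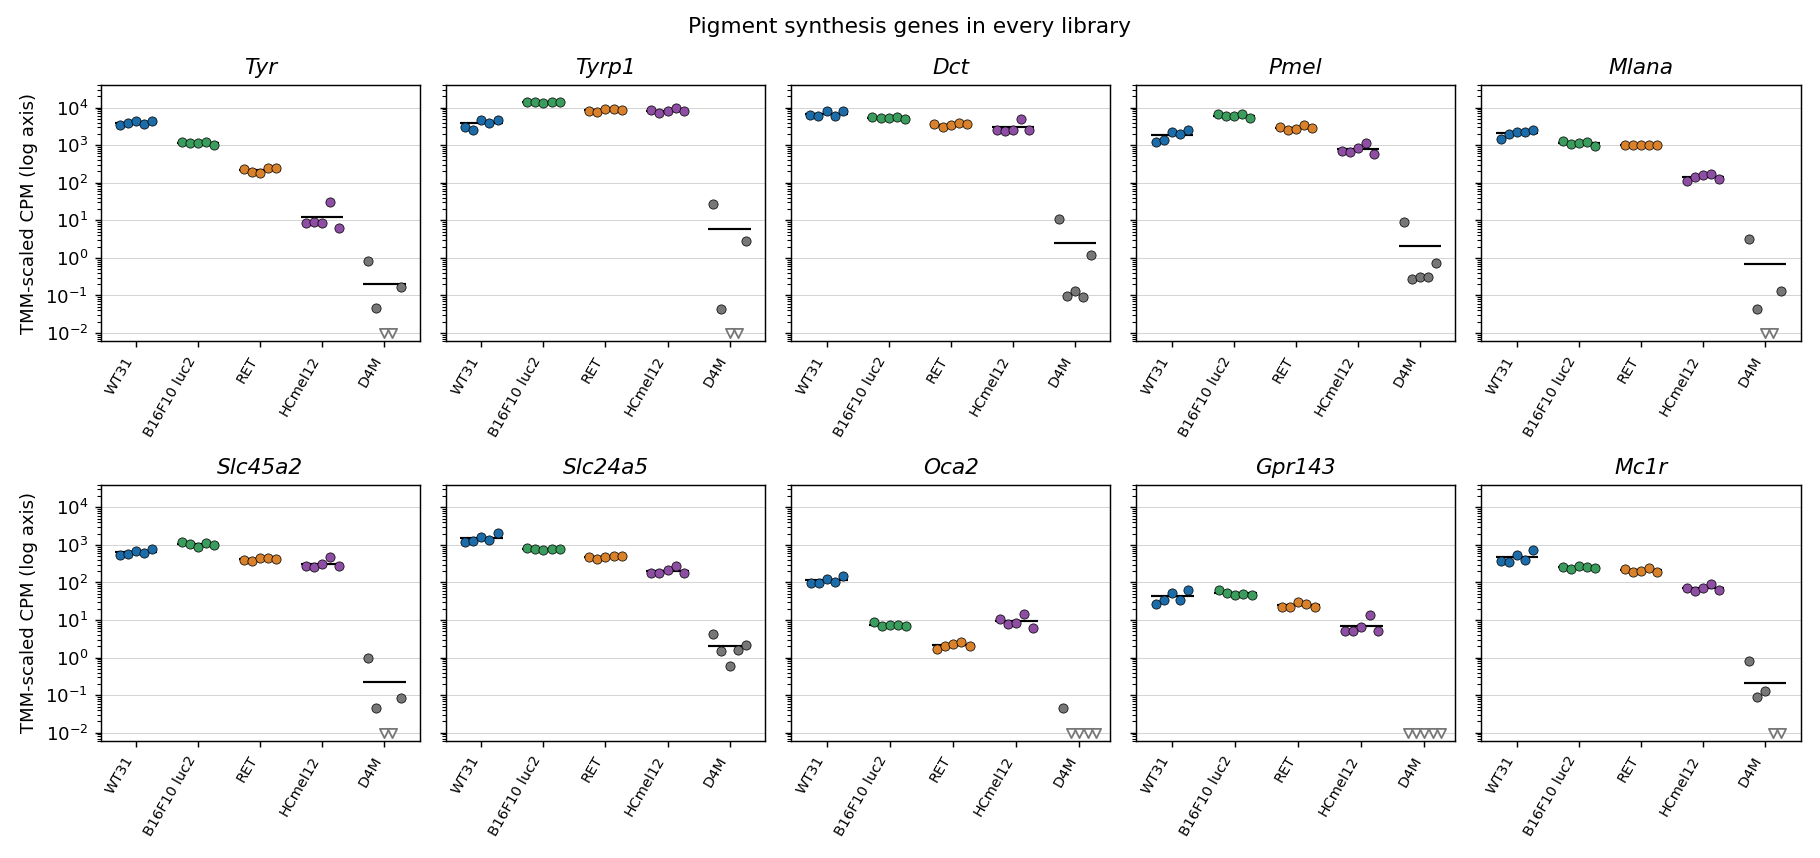
TMM-scaled CPM (log axis) of each of the 10 genes in the 25 libraries. Each point is 1 library, the horizontal bar is the mean of the 5 libraries, and open triangles mark libraries below 0.01 CPM; D4M is the lowest line for every gene, and Tyr and Oca2 have the widest spread among the other 4 lines.

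Tyr (ENSMUSG00000004651.6) differed between every pair of lines. It reached 3540, 3820, 4320, 3740 and 4490 CPM in WT31 (replicates 1 to 5), 1190, 1110, 1140, 1230 and 993 CPM in B16F10 luc2 and 225, 195, 186, 244 and 244 CPM in RET. In HCmel12 the values were 8.59, 9.13, 8.32, 30.1 and 6.31 CPM. The libraries of these 4 lines did not overlap, and Tyr decreased stepwise in the order WT31, B16F10 luc2, RET, HCmel12, D4M. Each step was significant, with log2 fold changes of 1.81 ± 0.16 (SE; adjusted p = 8.1e-11), 2.38 ± 0.16 (2.1e-12), 4.38 ± 0.23 (5.5e-15) and 6.89 ± 0.92 (2.2e-07). The size of the last step is uncertain, since 3 of 5 D4M libraries had at most 1 count of Tyr. Mean Tyr was 319 times higher in WT31 than in HCmel12. HCmel12 replicate 4 carried much of the HCmel12 mean, which was 12.5 ± 9.88 CPM with it and 8.09 ± 1.23 CPM without it (n = 4).

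Tyrp1 (ENSMUSG00000005994.14; chr4:80834123-80851719, plus strand) had another order, with WT31 the lowest of the 4 lines. It stood at 14300, 14300, 13500, 14000 and 13700 CPM in B16F10 luc2, at 7880, 7500, 9280, 9210 and 8380 CPM in RET and at 8360, 7200, 8240, 9720 and 8200 CPM in HCmel12. WT31 libraries held 3060, 2550, 4730, 3840 and 4660 CPM. B16F10 luc2 lay above and WT31 below all libraries of RET and HCmel12, which overlapped each other. The difference between RET and HCmel12 was 0.02 ± 0.22 on the log2 scale (adjusted p = 0.95; 95% interval -0.45 to 0.49). Tyrp1 was 2.21 times higher in HCmel12 than in WT31 (log2 fold change of WT31 against HCmel12 -1.18 ± 0.22, adjusted p = 3.8e-05), although HCmel12 had the least Tyr of these lines. With edgeR's quasi-likelihood test, the difference of WT31 from HCmel12 (adjusted p = 0.066) and from RET (0.06) and those of B16F10 luc2 from RET (0.28) and HCmel12 (0.23) missed the threshold. That test, here as for the other genes, estimated the spread over all 5 lines. This includes D4M, where Tyrp1 ranged from 0 to 27 CPM.

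Dct (ENSMUSG00000022129.4; chr14:118012790-118052244, minus strand) varied least of the 10 genes among the 4 lines. Its values were 6290, 5860, 7970, 6030 and 8010 CPM in WT31, 5530, 5260, 5210, 5460 and 5030 CPM in B16F10 luc2 and 3610, 3020, 3380, 3970 and 3590 CPM in RET. HCmel12 had 2600, 2350, 2550, 5050 and 2480 CPM, of which only replicate 4 reached the range of B16F10 luc2. Dct was 2.27 times higher in WT31 than in HCmel12 (log2 fold change 1.24 ± 0.19, adjusted p = 2.4e-06). WT31 and B16F10 luc2 libraries did not overlap, but the difference of 0.35 ± 0.19 missed the threshold (adjusted p = 0.099; 95% interval -0.05 to 0.75), which it passed without D4M replicate 1 (0.039) or HCmel12 replicate 4 (0.02). That of RET from HCmel12 was 0.29 ± 0.19 (adjusted p = 0.19) and became 0.49 (adjusted p = 0.0044) without HCmel12 replicate 4. With edgeR, the differences of B16F10 luc2 from RET (adjusted p = 0.23) and from HCmel12 (0.075) missed the threshold.

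The balance of the 3 enzymes therefore differed between lines. By TPM, Tyr made up 14.6% to 18.8% of their sum in WT31 libraries, 2.47% to 2.89% in B16F10 luc2, 0.756% to 0.99% in RET and 0.0265% to 0.109% in HCmel12. These ranges did not overlap. Dct was the main enzyme transcript in all WT31 libraries (53.3% to 58.4%), whereas Tyrp1 was in B16F10 luc2 (67.3% to 68.3%), RET (65.2% to 70.6%) and HCmel12 (63.4% to 74.9%). The median ratio of Tyrp1 to Tyr was 1.86 in WT31 and rose to 24 in B16F10 luc2, to 73.4 in RET and to 1630 in HCmel12, where it ranged from 580 in the library with the most Tyr to 2820. The ratio of Tyrp1 to Dct was 0.505 in WT31 and between 2.09 and 2.77 in the other 3 lines. Ratios within a library do not depend on scaling between libraries, but they do on the length by which the authors divided. Taken from counts, without length, the median ratio of Tyrp1 to Tyr was 1.03 in WT31, where the mean log2 ratio turned from 0.76 to -0.11, and 12, 37.8 and 973 in B16F10 luc2, RET and HCmel12. The Tyr share on counts was 25.4% to 31.2% in WT31, 5.03% to 5.93% in B16F10 luc2, 1.44% to 2% in RET and 0.0591% to 0.203% in HCmel12, again without overlap. Dct was still the largest of the 3 in every WT31 library and Tyrp1 in every library of the other 3 lines. No ratio was taken in D4M, since not every library had 10 counts of both genes.

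**Figure D2:**
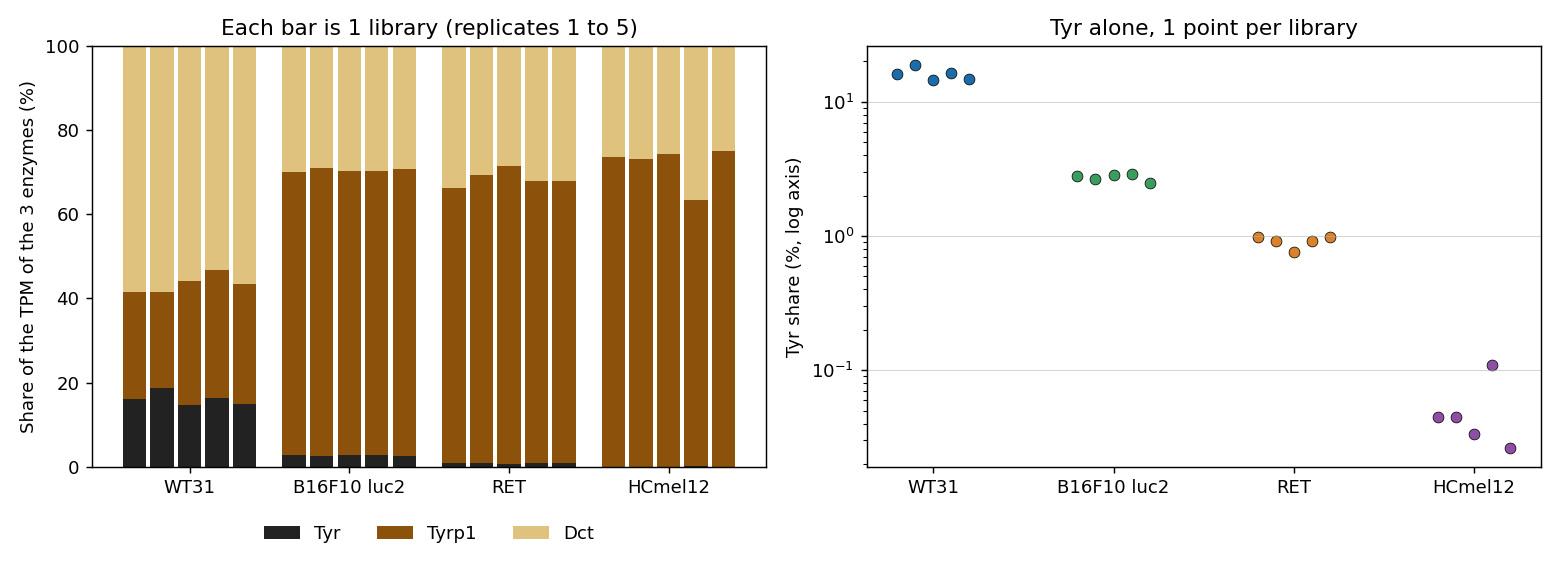
Share of Tyr, Tyrp1 and Dct in the summed TPM of these 3 enzymes (left, %, 1 bar per library) and the share of Tyr alone (right, %, log axis, 1 point per library) in the 4 lines other than D4M. The Tyr share falls from 14.6% to 18.8% in WT31 to at most 0.109% in HCmel12, and Dct exceeds Tyrp1 only in WT31.

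Pmel (ENSMUSG00000025359.10; chr10:128704195-128720238, plus strand), the amyloid protein of the melanosome scaffold, was highest in B16F10 luc2. It reached 6650, 6060, 5980, 6780 and 5200 CPM there, 3010, 2570, 2700, 3520 and 2820 CPM in RET, 1180, 1400, 2220, 1940 and 2520 CPM in WT31 and 692, 648, 822, 1160 and 571 CPM in HCmel12. No 2 of these lines overlapped, and each step in this order was significant. The log2 fold change was 1.07 ± 0.20 between B16F10 luc2 and RET (adjusted p = 6e-05), -0.71 ± 0.20 in WT31 compared with RET (0.0023) and 1.24 ± 0.20 between WT31 and HCmel12 (3.7e-06). With edgeR the difference of WT31 from RET missed the threshold (adjusted p = 0.1).

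Mlana (ENSMUSG00000024806.4; chr19:29697824-29708634, plus strand), also known as MART-1, a melanosomal membrane protein that is thought to assist Pmel, separated HCmel12 from the lines of HIM-melanoma. It was measured at 1480, 1930, 2280, 2210 and 2540 CPM in WT31, 1300, 1080, 1120, 1230 and 941 CPM in B16F10 luc2, 988, 981, 997, 1020 and 1030 CPM in RET and 113, 139, 165, 173 and 125 CPM in HCmel12. RET lay within the range of B16F10 luc2 (difference 0.17 ± 0.15, adjusted p = 0.36; 95% interval -0.14 to 0.48). The log2 fold change of RET against HCmel12 was 2.83 ± 0.15 (adjusted p = 6.4e-15), a ratio of 7.01 that exceeds the replicate spread of both lines. WT31 was higher than B16F10 luc2 (log2 fold change 0.87 ± 0.15, adjusted p = 9.6e-06) and RET (1.04 ± 0.15, 6.7e-07), but with DESeq2 both differences missed the threshold (adjusted p = 0.33 and 0.24).

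Of the transporters, Slc45a2 (ENSMUSG00000022243.10; chr15:11000721-11029233, plus strand), which is linked to melanosomal pH, was highest in B16F10 luc2 with 1160, 1070, 889, 1120 and 978 CPM. WT31 followed with 529, 576, 672, 601 and 788 CPM, RET with 398, 378, 437, 440 and 412 CPM and HCmel12 with 276, 262, 305, 468 and 275 CPM. HCmel12 overlapped RET only through replicate 4. The difference between RET and HCmel12 was significant with voom and limma (log2 fold change 0.41 ± 0.13, adjusted p = 0.0086) but not with edgeR (0.063). That between B16F10 luc2 and WT31 was larger (log2 fold change of WT31 against B16F10 luc2 -0.73 ± 0.13, adjusted p = 2.7e-05).

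Slc24a5 (ENSMUSG00000035183.14; chr2:125068124-125088677, plus strand), a potassium-dependent sodium/calcium exchanger, followed the same order of lines as Tyr with smaller steps. Its levels were 1200, 1270, 1610, 1390 and 2010 CPM in WT31, 850, 787, 719, 765 and 774 CPM in B16F10 luc2, 487, 424, 486, 515 and 507 CPM in RET and 184, 174, 216, 278 and 178 CPM in HCmel12. These 4 lines did not overlap, and the steps were 0.92 ± 0.13, 0.69 ± 0.13 and 1.25 ± 0.13 on the log2 scale (adjusted p = 6e-07, 8.1e-05 and 4.3e-09). Its exons overlap those of Myef2 on the other strand, and 37.2% of the 31-base stretches of its transcripts also occur in Myef2. Myef2 was measured at a similar level in every line, from 146 ± 7.59 CPM in B16F10 luc2 to 200 ± 15.1 in WT31, with 193 ± 16.1 in D4M (n = 5). Whether strand was used in counting is not given in the sources used here, so that reads of the 2 genes cannot be told apart where they overlap.

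Oca2 (ENSMUSG00000030450.11; chr7:56239760-56536518, plus strand), a chloride channel of the melanosome membrane, was highest in WT31. WT31 libraries had 95.1, 94.7, 123, 104 and 149 CPM, compared with 9.05, 7.05, 7.3, 7.39 and 6.84 CPM in B16F10 luc2, 1.74, 2.04, 2.29, 2.56 and 2.08 CPM in RET and 10.8, 8.09, 8.31, 14.2 and 6.22 CPM in HCmel12. RET was the lowest of the 4 lines, and HCmel12 overlapped B16F10 luc2. Mean Oca2 was 52.9 times higher in WT31 than in RET (log2 fold change 5.70 ± 0.24, adjusted p = 6.2e-17). RET was lower than HCmel12 (log2 fold change -2.10 ± 0.27, adjusted p = 1.4e-07), whereas B16F10 luc2 and HCmel12 differed by -0.29 ± 0.20 (0.2; 95% interval -0.70 to 0.13). With voom and limma, no other of the 10 genes was significantly lower in RET than in HCmel12.

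Of the receptors, Gpr143 (ENSMUSG00000025333.10; chrX:152781921-152808646, plus strand), the ocular albinism receptor of the melanosome membrane, had 62.4, 53.9, 46.5, 50.3 and 45.3 CPM in B16F10 luc2 and 26.5, 34, 53.5, 33.5 and 64.8 CPM in WT31. RET had 22.1, 22.3, 30.3, 27.5 and 21.7 CPM and HCmel12 5.26, 5.02, 6.45, 13.4 and 5.17 CPM. WT31 spanned the range of B16F10 luc2 and reached into that of RET, while HCmel12 lay below all 3 lines. RET and HCmel12 differed by 1.91 ± 0.27 on the log2 scale (adjusted p = 7.2e-07). WT31 and B16F10 luc2 differed by -0.35 ± 0.17 (adjusted p = 0.067; 95% interval -0.71 to 0.00), and this difference was significant without WT31 replicate 3 (0.024), WT31 replicate 5 (0.0035) or HCmel12 replicate 4 (0.048).

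Mc1r (ENSMUSG00000074037.3; chr8:123407107-123410744, plus strand) was detected at 383, 345, 547, 399 and 740 CPM in WT31, 252, 231, 276, 261 and 242 CPM in B16F10 luc2, 228, 188, 207, 238 and 193 CPM in RET and 69.8, 60.4, 73.1, 92.4 and 62.2 CPM in HCmel12. WT31 lay above and HCmel12 below all other libraries of the 4 lines. The log2 fold change was 0.88 ± 0.15 between WT31 and B16F10 luc2 (adjusted p = 1.4e-05) and 1.57 ± 0.16 between RET and HCmel12 (2.8e-09). B16F10 luc2 and RET overlapped and differed by 0.26 ± 0.16 (adjusted p = 0.17; 95% interval -0.06 to 0.59), a difference that passed the threshold when only these 2 lines were fitted (adjusted p = 0.0046). Of the 31-base stretches of Mc1r, 17.3% also occur in Gm38092, which overlaps it on the other strand.

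In D4M the genes were counted unevenly between libraries. The summed counts of the 10 genes were 1233, 49, 26, 45 and 173 in replicates 1 to 5, and 1141, 14, 13, 9 and 121 without Slc24a5. Replicate 1 had the highest count for every gene other than Gpr143, which was not detected in any D4M library (0 counts in each, and 3 counts correspond to at most 0.138 CPM). It held between 77.5% (Tyr) and 94.7% (Mlana) of the D4M counts of Tyr, Tyrp1, Dct, Pmel, Mlana, Slc45a2 and Mc1r. Tyrp1 had 588, 1, 0, 0 and 67 counts, Dct 233, 2.2, 3, 2 and 28, Pmel 191, 6, 7, 7 and 17 and Mlana 71, 1, 0, 0 and 3. The counts of Slc45a2 were 21, 1, 0, 0 and 2, and those of Mc1r 18, 2, 3, 0 and 0. The mean of Tyrp1 in D4M went from 5.99 to 0.725 CPM without replicate 1, that of Dct from 2.44 to 0.378, that of Pmel from 2.08 to 0.403 and that of Tyr from 0.205 to 0.0546. Sox10 was highest in the same library (2.07 CPM, with 0.511 CPM in the next). As a share of the B16F10 luc2 mean, the level in replicate 1 was between 0.0711% (Tyr) and 0.288% (Mlana) for the enzymes, Pmel, Mlana and Slc45a2. It was 0.329% for Mc1r, 0.545% for Slc24a5, 0.611% for Oca2 on 1 count and 0% for Gpr143. Shares of another line's mean would differ. RET means were 219 CPM for Tyr, 8450 for Tyrp1, 3520 for Dct, 2920 for Pmel, 1000 for Mlana and 413 for Slc45a2. D4M replicate 1 had 0.806, 27, 10.7, 8.78, 3.26 and 0.965 CPM of these genes. For Slc24a5, Mc1r, Oca2 and Gpr143 the RET means were 484, 211, 2.14 and 24.8 CPM, beside 4.24, 0.829, 0.046 and 0 CPM. What part RNA of another line had in these counts was not tested.

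Folds against D4M thus depended on replicate 1, and those fitted by limma also on the offset that voom adds to a count of 0. Oca2 had a single count in D4M, in replicate 1. Set against 3 counts in each D4M library, Oca2 was at least 821-fold higher in WT31, 54.6-fold in B16F10 luc2, 15.5-fold in RET and 69-fold in HCmel12. On the same basis Gpr143 was at least 308-fold higher in WT31, 375-fold in B16F10 luc2, 180-fold in RET and 51.2-fold in HCmel12. Slc24a5 was the gene most evenly counted in D4M, with 92.3, 34.6, 13.5, 36 and 51.8 counts, and it is the one that shares the largest part of its sequence with another gene.

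**Figure D3:**
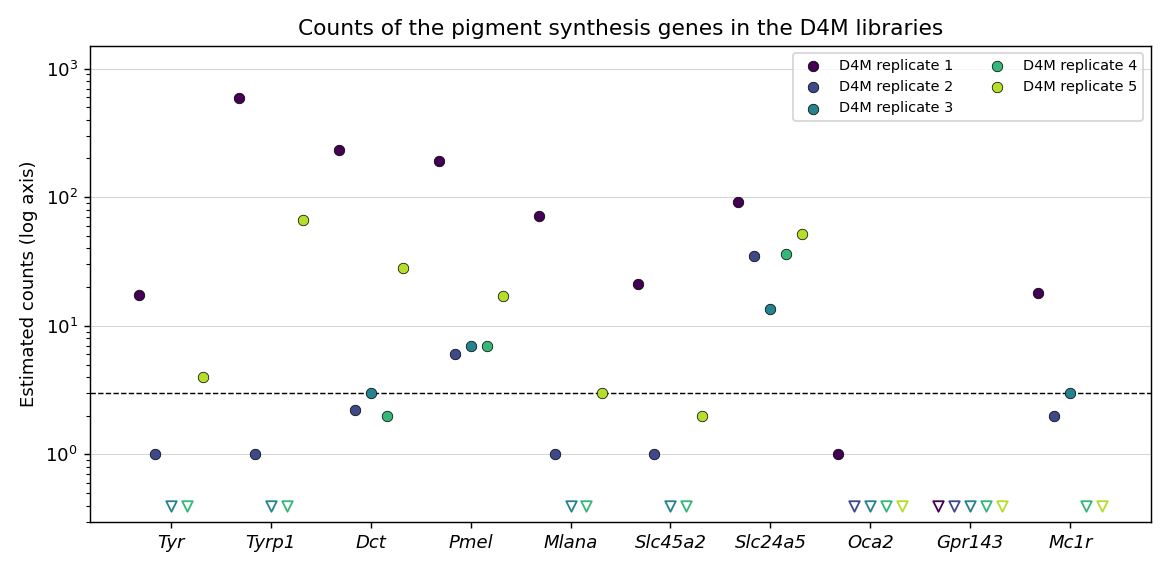
Estimated counts (log axis) of the 10 genes in each of the 5 D4M libraries, with open triangles for libraries under 0.5 counts and a dashed line at 3 counts. Replicate 1 is the highest for every gene with counts, replicate 5 the second for most of them, and Gpr143 has no count in any library.

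Markers of other cells were checked beside these values. Fibroblast markers summed to 707 to 1390 CPM in D4M, compared with 31.8 to 102 in RET, 26.9 to 35.8 in B16F10 luc2, 3.05 to 5 in WT31 and 1.36 to 1.89 in HCmel12, and all 5 tested markers of 8 were higher in D4M than in each other line. Of all tested genes, 38.6%, 38.9%, 38.3% and 36.8% were higher in D4M than in WT31, B16F10 luc2, RET and HCmel12. In D4M the collagen genes Col3a1, Col1a2 and Col1a1 had 472 ± 177, 354 ± 60.8 and 144 ± 36.9 CPM, and the growth factor receptor Pdgfrb had 47.4 ± 14.5 CPM. Dcn, Lum and Thy1 did not pass the filter on low counts, and Lum had 0 counts in all D4M libraries. The labels call D4M melanoma, and its melanocyte markers Tyr, Tyrp1, Dct, Pmel, Mlana and Sox10 were low in all its libraries, with the highest values in replicate 1 (27 CPM of Tyrp1) and replicate 5 (2.85 CPM of Tyrp1). The part of fibroblast-like expression in the difference between D4M and the other lines was not tested. Summed leukocyte markers were at most 16.7 CPM in any line. Keratinocyte markers summed to at most 15.3 CPM, in HCmel12, where Cdh1 was the highest of them. In D4M they summed to at most 3.24 CPM (Krt10 was at 2.47 ± 0.358 CPM there). Endothelial markers were at most 2.11 CPM outside HCmel12, where they summed to 25.5 to 39.1 CPM, with Kdr at 31 ± 5.71 CPM and Pecam1 at 0.108 ± 0.0613 CPM.

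Among the 4 lines other than D4M, the order of line means was the same for Tyr, Dct, Mlana, Slc24a5 and Mc1r. The regulators Mitf, Sox10 and Pax3 did not have this order, and that of Sox10 was the order of Oca2. Mitf was measured at 692 ± 81.6 CPM in B16F10 luc2, 646 ± 127 in HCmel12, 434 ± 57.6 in RET and 416 ± 82.4 in WT31, but 6.38 ± 0.41 in D4M. Sox10 stood at 897 ± 66 CPM in WT31, 826 ± 58.6 in HCmel12, 613 ± 31.2 in B16F10 luc2 and 547 ± 47.4 in RET, but 0.552 ± 0.872 in D4M, or 0.172 ± 0.233 without its replicate 1 (n = 4). Pax3 lay between 177 ± 6.94 (B16F10 luc2) and 221 ± 14.2 CPM (WT31) in these 4 lines and at 21 ± 1.05 CPM in D4M. HCmel12, with the least Tyr, Dct, Pmel, Mlana, Slc45a2, Slc24a5, Gpr143 and Mc1r of the 4 lines, thus had more Mitf than WT31 (log2 fold change of WT31 against HCmel12 -0.64 ± 0.13, adjusted p = 7.5e-05) and RET (-0.56 ± 0.13, 0.00033). It also had more Sox10 than RET (-0.60 ± 0.11, 3.2e-05) and B16F10 luc2 (-0.43 ± 0.11, 0.0012). Against D4M all 3 regulators were higher in each of the 4 lines, and in HCmel12 the log2 fold changes were 6.64 ± 0.23 for Mitf, 12.08 ± 0.54 for Sox10 (12.91 ± 0.51 without D4M replicate 1) and 3.38 ± 0.07 for Pax3. Over all 11 regulators on the list, 6 were higher and 2 lower in WT31 than in D4M, 6 and 4 in B16F10 luc2, 5 and 4 in RET and 7 and 2 in HCmel12, where 37.5% and 38.6%, 38.8% and 38.9%, 38.8% and 38.3%, and 35.7% and 36.8% of all tested genes were.

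Of the 11 regulators, 2 were higher and 6 lower in WT31 than in HCmel12, 1 higher and 7 lower in B16F10 luc2, and 1 higher and 8 lower in RET. Of all tested genes, 36.1% and 34.3%, 35.3% and 33.8%, and 34% and 33.3% were higher and lower in these comparisons. The median log2 fold changes of the regulators were -0.25, -0.31 and -0.53, whereas the medians of the pigment genes were above 0 in the same comparisons. Lef1, a Wnt effector, had 94.4 ± 10.3 CPM in WT31 and at most 4.07 ± 0.929 in the other lines. Tfap2b was at 130 ± 29.2 CPM in HCmel12 and 265 ± 22.3 in D4M and at most at 0.12 elsewhere. Irf4, a known activator of Tyr together with Mitf, was at 6.11 ± 4.08 CPM in HCmel12, 2.16 ± 1.5 in WT31 and at most at 0.21 elsewhere. The lowest lines of these 3 genes were near 0 counts, so that the size of their fitted log2 ranges depends on the offset. Irf4 was highest in HCmel12, the line with the least Tyr of the 4.

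Among the 4 lines other than D4M, the difference between the highest and the lowest line had a median of 2.92 on the log2 scale for the 10 pigment genes (1.24 for Dct to 8.57 for Tyr). It was 0.75 for the 11 regulators, 1.10 for 8 tested genes of the melanocortin pathway, 0.95 for 30 genes of melanosome biogenesis and transport and 1.04 for all tested genes. Of the regulators, Lef1 and Tfap2b spanned at least 9.61 and 10.09 when lines under 3 counts per library were set to that level, more than any pigment gene. Mitf spanned 0.75, Sox10 0.71 and Pax3 0.32. The mean of the 4 lines exceeded D4M by a median of 11.69 for the pigment genes (11.37 with D4M at no less than 3 counts per library, which raised 6 of the 10), 0.35 for the regulators, 0.12 for the melanocortin pathway, 0.73 for melanosome biogenesis and transport and 0.02 for all genes.

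**Figure D4:**
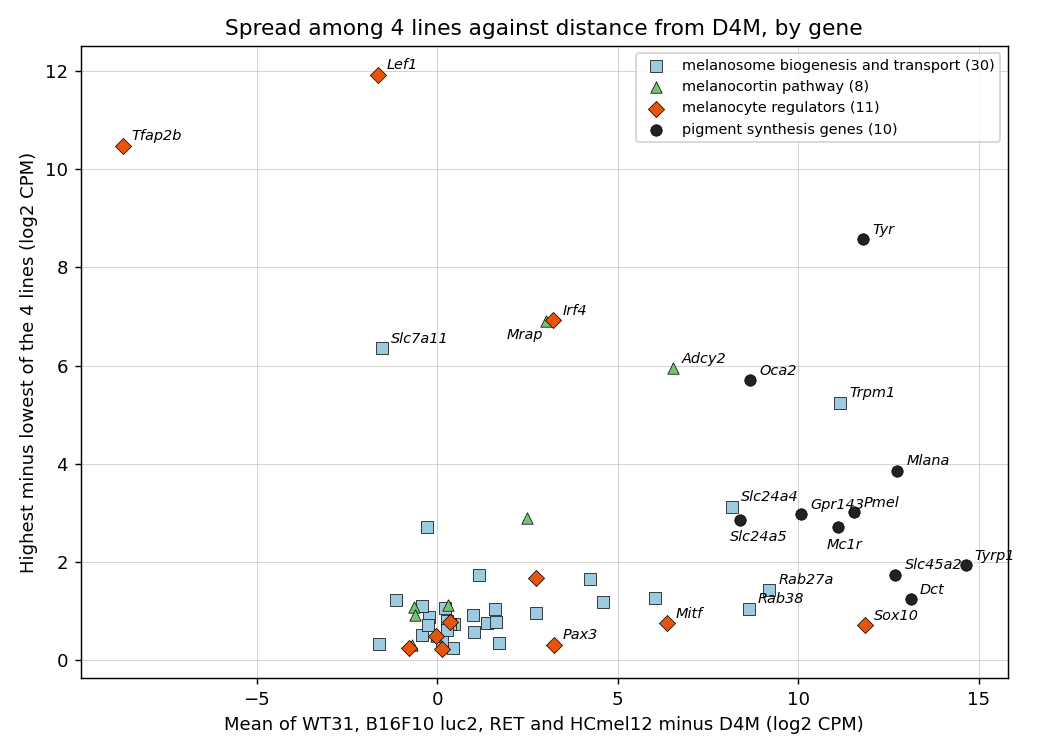
Difference between the highest and the lowest of WT31, B16F10 luc2, RET and HCmel12 (vertical, log2 CPM) against the mean of these 4 lines minus D4M (horizontal, log2 CPM) for each gene of 4 lists. The 10 pigment genes lie at 8.40 or more on the horizontal axis (Oca2 and Gpr143 at 6.36 and 7.44 with D4M set to 3 counts per library) and spread from 1.24 to 8.57 vertically, while Mitf, Sox10 and Pax3 are at most 0.75 vertically.

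In the melanocortin pathway, which signals through Mc1r, the genes named are Adcy2, Mrap, Pomc and Atrn, by their range over all 5 lines. In D4M, Adcy2 and Mrap were near 0 counts. Adcy2, an adenylate cyclase, had 14.9 ± 2.42 CPM in WT31, followed by B16F10 luc2 (4.32 ± 0.592), RET (2.94 ± 0.588) and HCmel12 (0.266 ± 0.176), the same order as Tyr and Mc1r. Mrap, an accessory protein of melanocortin receptors, was found in RET (5.19 ± 0.457 CPM) and at most at 0.159 ± 0.0766 CPM elsewhere. Pomc, the precursor of the melanocortin ligands, was at most 1.81 ± 0.33 CPM in any line, and Atrn, a co-receptor of the agouti protein, lay between 52.6 ± 1.84 (HCmel12) and 123 ± 8.11 CPM (D4M). Of the 8 tested genes, 4 were higher and 3 lower in WT31 than in HCmel12, 4 and 2 in B16F10 luc2 and 4 and 3 in RET. Of all tested genes, 36.1% and 34.3%, 35.3% and 33.8%, and 34% and 33.3% were higher and lower there. Compared with D4M, 3 were higher and 2 lower in WT31, 4 and 4 in B16F10 luc2, 3 and 4 in RET and 3 and 2 in HCmel12. The shares of all tested genes were 37.5% and 38.6%, 38.8% and 38.9%, 38.8% and 38.3%, and 35.7% and 36.8%. Asip, the agouti ligand, was not analysed here.

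In melanosome biogenesis and transport, 18 of 30 genes were higher and 5 lower in WT31 than in D4M, 23 and 7 in B16F10 luc2, 20 and 8 in RET and 20 and 6 in HCmel12. The shares of all tested genes were 37.5% higher and 38.6% lower in WT31, 38.8% and 38.9% in B16F10 luc2, 38.8% and 38.3% in RET and 35.7% and 36.8% in HCmel12. Rab27a and Rab38, small GTPases of melanosome transport and of cargo delivery, were near 0 in D4M (0.286 ± 0.134 and 0.855 ± 0.56 CPM) and at 116 ± 48.9 CPM or more and 212 ± 25.3 CPM or more in the other lines. Trpm1, a cation channel and known Mitf target, was highest in WT31 with 2210 ± 717 CPM, while B16F10 luc2 had 186 ± 50.5, HCmel12 107 ± 58.1, RET 56.9 ± 8.86 and D4M 0.111 ± 0.111 CPM. The log2 fold change of Trpm1 in WT31 against B16F10 luc2 was 3.56 ± 0.24 (adjusted p = 3.9e-13). Most of the list ran the other way, with 9 of 30 genes higher and 17 lower in WT31 than in B16F10 luc2. In WT31 compared with RET, 10 were higher and 14 lower. Of all tested genes, 36.4% and 36.4%, and 36.8% and 36.4%, were higher and lower in these 2 comparisons. Slc24a4, an exchanger related to Slc24a5, was at 16.1 ± 12.2 CPM in WT31 and 16.5 ± 3.83 in B16F10 luc2, and no read was counted in D4M.

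Among the 10 genes, the profile of the 5 line means (log2 CPM, centred) was most alike for Dct and Slc45a2, with a root mean square difference of 0.40, and for Gpr143 and Mc1r (0.60). Pmel was closest to Slc45a2 (0.74), Mlana to Mc1r (0.80), Slc24a5 to Gpr143 (0.81) and Tyrp1 to Dct (1.07). Tyr and Oca2 had no close partner, with 1.69 to Mlana and 1.48 to Slc24a5. Mc1r was closest to the mean profile of all 10 (0.28), and Tyr and Oca2 were farthest from it (1.96 and 1.94). Of all other tested genes the 5 nearest to this mean over 5 lines were Enho (0.91), Fam174b (0.92), Sox11 (0.94), Sox10 (0.97) and Prickle1 (1.03). Enho was at 192 ± 16.3 CPM in WT31, between 78.1 ± 10 and 110 ± 13.8 in B16F10 luc2, RET and HCmel12 and at 0.137 ± 0.233 in D4M. All 5 were near 0 in D4M, with means of 0.0812 (Sox11) to 0.552 CPM (Sox10). These profiles include D4M, where the log2 values of Oca2 and Gpr143 are set by the offset added to counts of 0 and those of most other members depend on replicate 1. Over the 4 lines other than D4M, Slc24a5 was closest to the mean profile (0.19) and Mc1r lay at 0.27, with Tyr and Oca2 again farthest (2.19 and 1.77). Dct and Slc45a2 remained nearest to each other there (0.41), while Mc1r and Slc24a5 were the closest pair (0.18) and Gpr143 was at 0.49 from Mc1r. The nearness of Sox11, Enho, Prickle1 and Sox10 came with D4M. Over the other 4 lines, between 2122 (Sox11) and 6430 (Sox10, at 1.07) tested genes outside the 10 were nearer to the mean. Fam174b stayed nearer, at 0.59, with 307 such genes ahead of it. All these values rest on 4 or 5 line means and are a description.

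HCmel12 replicate 4 had the highest value of its line for 10 of 10 pigment genes, compared with 30.7% of all 15247 tested genes. It exceeded the mean of the other 4 libraries 3.72 times for Tyr, 2.46 times for Gpr143, 2.02 times for Dct, 1.7 times for Pmel and Oca2, 1.67 times for Slc45a2, 1.48 times for Slc24a5, 1.39 times for Mc1r, 1.28 times for Mlana and 1.21 times for Tyrp1. The same library was the highest for 3 of 11 regulators, Mitf (1.27 times), Tfeb (1.41 times) and Irf4 (2.92 times), and for 20 of 30 genes of melanosome biogenesis and transport, with Rab27a at 2.09 times. Sox10 (0.924 times) and Tfap2b (0.628 times) were not raised. Every one of the 10 genes in this library stayed on the same side of WT31 as in the other HCmel12 libraries.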

How the data were processed

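The data were RNA-seq of 25 libraries, 5 per line. Per the methods and the labels, the authors trimmed the reads with trim_galore (0.6.4), assigned them to GRCm38.p6 with kallisto, and deposited estimated counts per gene without normalization. The authors also deposited TPM, scaled by transcript length to 1000000 per library; 24 libraries had TPM here, since that of D4M replicate 1 was not used. The TPM alternatives therefore also leave out that library. Annotation release and strand setting are not given in the sources used here. The 10 genes and all lists were chosen with earlier results of these data known. Part of the D4M genotype is not reported here.

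Counts were filtered with filterByExpr by line (edgeR 4.0.16), scaled with TMM factors, and fitted with voom and limma (3.58.1, R 4.3.3) with a mean per line over all 25 libraries (both named in the methods). Intervals of differences use 20 residual degrees of freedom. Named were the 10 genes, up to 4 tested genes with the largest range of line means in each other list, the 5 tested genes nearest to the mean profile, and each gene's nearest partner; Mitf, Pax3, Myef2, Tfeb, Dcn, Lum and Thy1 were added after their values were seen. Shared sequence was counted as 31-base stretches in GENCODE M21 transcripts, promoters were from RefSeq (GRCm38.p6), and symbols were found for 55144 of 55385 genes. A floor of 3 counts covers counting error only. In simulated data with known changes, voom and limma, edgeR and DESeq2 (1.42.0) were tested before use; rounded counts entered the last 2. The alternatives were other scaling and filters, these tools, log2 of TPM with pseudocounts of 1 and 0.1, the replicate number as a block, only the 2 lines of a comparison, and leaving out each library. Leaving out D4M replicates 1 and 5 and HCmel12 replicate 4 together was chosen after seeing the data, as were Sox10 without D4M replicate 1, profiles without D4M, enzyme shares on counts and ranges with line means raised to the floor.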

Additional observations from a re-analysis of the deposited data

Results flagged for a closer look

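In 13 of 63 groups of 5 libraries screened, 1 library lay apart from the other 4 by more than the 95% critical value of Dixon's test allows; chance gives about 1 in 20. D4M replicate 1 was such a library for Tyr (0.806 CPM), Tyrp1 (27 CPM), Dct (10.7 CPM), Pmel (8.78 CPM), Mlana (3.26 CPM), Slc45a2 (0.965 CPM), Mc1r (0.829 CPM) and Sox10 (2.07 CPM). HCmel12 replicate 4 was for Tyr (30.1 CPM), Dct (5050 CPM), Slc45a2 (468 CPM) and Gpr143 (13.4 CPM). In B16F10 luc2, replicate 1 stood apart for Oca2 (9.05 CPM, with 7.39 CPM in the next library). All 13 were the highest library of their line.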

How the results depend on the processing

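Leaving out any 1 of the 25 libraries ended no significant difference of a pigment gene and turned none. Counts grew by 1 in RET above HCmel12 (7 to 8, Dct), WT31 above B16F10 luc2 (5 to 6, Dct) and WT31 below it (3 to 4, Gpr143), with the libraries named above. The non-significant difference of Tyrp1 between RET and HCmel12 went from 0.02 to -0.03 without HCmel12 replicate 2 and to -0.01 without RET replicate 3 or 4, and to -0.01 with DESeq2's size factors. With edgeR's quasi-likelihood test, 0 genes instead of 2 were lower in WT31 than in RET and 0 instead of 1 lower in WT31 than in HCmel12, and 8 of 100 differences lost and none gained significance. DESeq2 gave Tyrp1, Dct and Pmel no adjusted p in any comparison; it called 1 gene instead of 3 lower in WT31 than in B16F10 luc2, 0 lower in WT31 than in RET and in HCmel12, and 5 instead of 8 higher in B16F10 luc2 than in RET, and 2 of the other 70 differences, of Mlana in WT31 against B16F10 luc2 and RET (adjusted p = 0.33 and 0.24), lost significance. It left 6 of 7 genes higher in all 6 comparisons of HIM-melanoma with D4M and HCmel12, since Pmel had no adjusted p. Log2 of TPM with a pseudocount of 0.1, which also leaves out D4M replicate 1, lost 5 calls, all of Tyrp1 or Dct. With only the 2 lines fitted, Mc1r became significantly higher in B16F10 luc2 than in RET (adjusted p = 0.0046). Without a filter Tyrp1 missed the threshold in WT31 and HCmel12 against D4M (log2 fold change 13.57 and 14.76, adjusted p = 0.07 and 0.053). Dct became significantly higher in WT31 than in B16F10 luc2 under several settings, with adjusted p between 0.0003 and 0.045. Ratios taken from counts, which ignore length, moved by construction: log2 Tyrp1 to Tyr was -0.11 instead of 0.76 in WT31, 3.63 in B16F10 luc2, 5.28 in RET and 9.63 in HCmel12, log2 Dct to Tyr 0.77, 2.23, 4.01 and 8.10, and log2 Tyrp1 to Dct 1.40 in B16F10 luc2 and 1.27 in RET. The causes of the other changes were not tested. Same-numbered libraries did not deviate together (50 pairs of libraries, r from -0.091 to 0.104, and 6 of 25 libraries closest to their own number), so that the number was not used for pairing; the replicate block changed 0 of 100 member calls or signs, and 5 pigment genes remained higher and 3 lower in WT31 than in B16F10 luc2. Depth limits Oca2 and Gpr143 in D4M, for which bounds are given, and also the size of the folds of Tyr, Mlana, Slc45a2 and Mc1r against D4M, where their fitted means lay below 3 counts per library.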
